A study of Mus musculus with 6 samples.

Results

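The loci described here are the long non-coding RNA (lncRNA) loci of mouse zygotes whose listed coordinates span 50 kb or more. Membership rested on the coordinates alone: the end minus the start of a locus (build mm9) had to reach 50000 bp, and loci whose coordinates occurred on more than 1 row of the tables were left out. This gave 316 of 3307 listed loci (9.56%), and a further 103 loci of that span were left out for shared coordinates. No measured level was used to choose them. The comparison below is mostly with the 2694 loci under 50 kb that had coordinates of their own, called shorter loci.

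A lncRNA is a transcript longer than a small RNA that is not read into protein. Some lncRNAs act on chromatin or on neighbouring genes, many have no known role, and very long ones include imprinted lncRNAs that silence genes around them. The zygote at the pronucleus stage carries RNA stored by the oocyte and begins its own first transcription, while the maternal and paternal genomes still lie apart.

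Zygotes of C57BL/6 mice were profiled by RNA sequencing in 3 libraries labelled control and 3 labelled micro-gravity, that is, simulated microgravity (called microgravity below). All 6 libraries share the strain, the stage and the freezing and lysis of the zygotes. The device, the time of exposure, the number of zygotes per library and the age of the animals are not stated in the sources used here. Titles within a group share 1 prefix, and a single collection of zygotes per group is possible. P-values therefore reflect the scatter of these libraries alone, and that scatter may be technical. Since the tables name no genes, the labelled cell type could not be checked against markers and no locus was given a gene name. Levels are RPKM as deposited (read counts divided by transcript length and by library size). Depth in reads is unknown, and whether the length behind a value is that of the exons or of the whole locus is not stated in the sources used here. In such bulk libraries, fewer zygotes that make a transcript and less of it per zygote cannot be told apart. Across the long loci, Pearson's r of log2(RPKM + 1) between libraries was 0.886 to 0.900 for pairs of control libraries, 0.889 to 0.910 for pairs of microgravity libraries and 0.869 to 0.919 for mixed pairs. These ranges overlapped. Levels differ widely between loci, which by itself keeps r high, so r cannot show whether the groups differ at single loci. These r values are across loci, which are not independent replicates.

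Long loci had higher levels than shorter ones. The median of the mean RPKM over the 6 libraries was 130 (quartiles 56.4 and 289) for the long loci and 64.9 (33.2 and 167) for the shorter ones. The order was the same in each of the 6 libraries: library medians ran from 123 to 136 RPKM among the long loci and from 64.1 to 67.2 RPKM among the shorter. By tertiles of mean level set over all 3307 loci, 158 long loci (50%) were in the highest tertile, 99 in the middle and 59 (18.7%) in the lowest, against 30.2% of shorter loci in the highest and 36.0% in the lowest. A level of at least 100 RPKM in every library was reached by 148 long loci (46.8%) and 769 shorter ones (28.5%).

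Median level was higher in the longer span classes, also among the long loci themselves. The median was 41.5 RPKM for the 309 loci under 2 kb, 58.2 for 692 loci of 2 to under 5 kb, 61.6 for 544 loci of 5 to under 10 kb, 83.6 for 577 loci of 10 to under 20 kb, 81.6 for 572 loci of 20 to under 50 kb, 106 for 204 loci of 50 to under 100 kb, 170 for 84 loci of 100 to under 200 kb and 256 for 28 loci of 200 kb or more. None of the last 28 was in the lowest tertile. Within each class the levels spread widely. Quartiles were 48.7 and 245 RPKM at 50 to under 100 kb, for example, and 184 and 411 RPKM at 200 kb or more. Across classes, log10 span and log10 mean RPKM had a correlation of 0.210 over the 316 long loci. It was 0.184 over the 3010 loci with coordinates of their own. Both are given as a description, since loci share libraries and a length correction. The very top of the table was held by other loci. The most abundant long locus had rank 22. Of the 100 most abundant loci 9 were long ones, near the 9.56% that long loci made up of all listed loci.

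**Figure D1:**
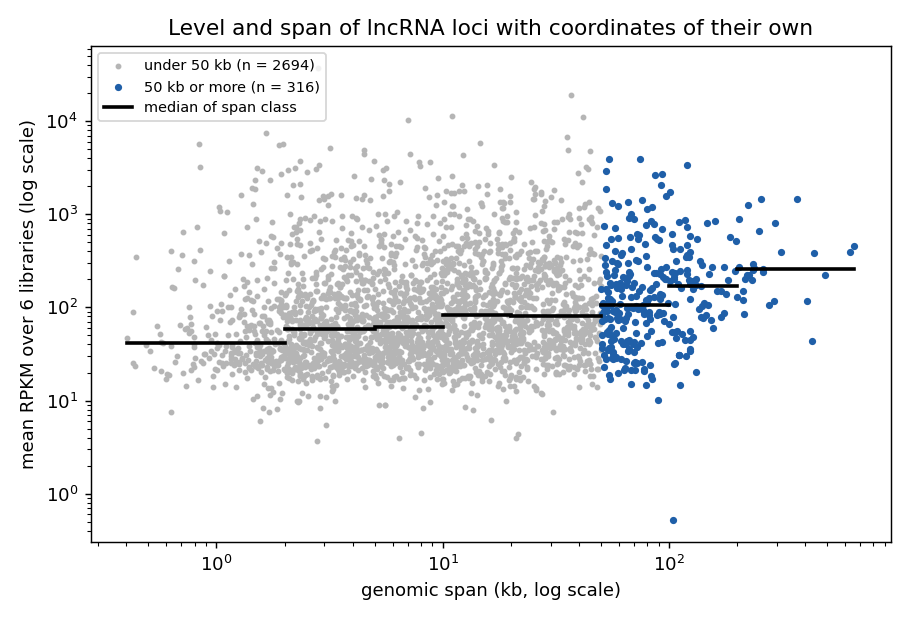
Mean RPKM over 6 libraries (log scale) against genomic span in kb (log scale) for each lncRNA locus with coordinates of its own; grey points are loci under 50 kb, blue points the 316 long loci, and black bars the median of a span class. The median is 41.5 RPKM under 2 kb and 256 RPKM at 200 kb or more, with nearly level values of 83.6 and 81.6 RPKM in the 2 classes from 10 to under 50 kb, and single loci scatter widely around each median.

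Together the long loci covered 44.9% of the summed span of the 3155 listed sets of coordinates and took a near-constant part of the RPKM total. Control libraries gave 10.7% ± 0.112 of it and microgravity libraries 10.7% ± 0.215 (SD, n = 3 each). The share lay between 10.6% and 10.95% in every library, so the groups overlapped. A small number of loci carried much of it: 31 of the 316 made up 50% of the RPKM of the long loci, and 20 had a mean of 1000 RPKM or more.

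The longest locus of the table was XLOC_021001 on chromosome 4 (103291483 to 103949032, mm9), 657549 bp long, with control values of 429, 393 and 470 RPKM and microgravity values of 460, 534 and 455 RPKM. Next came XLOC_029159 on chromosome 8 (110524357 to 111153362), 629005 bp, with 433, 384 and 354 RPKM in control and 469, 293 and 423 RPKM in microgravity. Both sat well above the median of the long loci, and in both the groups overlapped. The third, XLOC_011168 on chromosome 15 (63115042 to 63603824), 488782 bp, differed from these 2 in that every microgravity library was above every control library, and it is described with the comparison below. XLOC_022972 on chromosome 5 (42304366 to 42740262) had 421, 371 and 419 RPKM in control and 519, 249 and 313 RPKM in microgravity. Its highest and lowest values were thus both in microgravity libraries. A second long locus of chromosome 5, XLOC_023834 (99730096 to 100158233), had the lowest level of the 10 longest, with 37.8, 51.4 and 41.4 RPKM in control and 30.6, 44.8 and 55.8 RPKM in microgravity.

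The rest of the 10 longest spanned 290396 to 405822 bp. XLOC_018998 on chromosome 3 (34003363 to 34409185) had 54.9, 106 and 124 RPKM in control and 145, 133 and 148 RPKM in microgravity. Its groups did not overlap, and the log2 difference of 0.65 ± 0.31 (SE) had a limma adjusted p of 0.626. Without the 1 low control library the log2 difference was 0.30. XLOC_003334 on chromosome 10 (109525664 to 109892921) was the most abundant of the 10, with 1768, 1385 and 1167 RPKM in control and 1335, 1593 and 1443 RPKM in microgravity. XLOC_016662 on chromosome 2 (3772269 to 4065055) had 755, 812 and 990 RPKM in control and 986, 732 and 546 RPKM in microgravity. In both of these loci the groups overlapped. XLOC_011972 on chromosome 16 (5352656 to 5664305) averaged 411 ± 62.0 RPKM in control against 380 ± 98.4 RPKM in microgravity (SD, n = 3 each). XLOC_000282 on chromosome 1 (75671683 to 75962079) averaged 103 ± 21.5 RPKM against 134 ± 34.3 RPKM in the same order. In both of these the groups overlapped, and the limma adjusted p values were 0.889 and 0.716.

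The most abundant long loci varied little between libraries. XLOC_029448 on chromosome 8 (31550245 to 31624448, 74203 bp) had 4005, 4144 and 4328 RPKM in control and 3873, 3307 and 4127 RPKM in microgravity. XLOC_030882 on chromosome 9 (66981313 to 67035630, 54317 bp) had 3936, 3767 and 4078 RPKM in control and 3944, 4019 and 3701 RPKM in microgravity. Their means over the 6 libraries, 3964 and 3907 RPKM, differed by less than the SD within either group of either locus. The other three of the top 5 were XLOC_008509 on chromosome 13 (62107993 to 62227642) at 3526 ± 206 RPKM in control against 3152 ± 227 RPKM in microgravity (SD, n = 3 each), XLOC_025462 on chromosome 6 (143194276 to 143246752) at 2870 ± 177 and 2888 ± 54.5, and XLOC_033059 on chromosome X (155430120 to 155523313) at 2680 ± 92.2 and 2704 ± 103. For all 5 the 95% interval of the log2 difference between the groups (limma) lay between -0.39 and 0.23, which leaves no room for a 2-fold difference within the spread of these libraries. These are intervals of single loci, without adjustment for their number.

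The lowest long loci were near the floor of the table. XLOC_020894 on chromosome 4 (55620942 to 55724947, 104005 bp) was listed at 0 in 5 libraries and at 3.16 RPKM in control replicate 3, and it was the only long locus that did not enter the test. XLOC_013071 on chromosome 17 (4407332 to 4496919) had 5.38, 11.9 and 14.0 RPKM in control and 4.95, 11.1 and 13.8 RPKM in microgravity. XLOC_017051 on chromosome 2 (117356608 to 117435623) had 13.8, 7.73 and 9.76 RPKM in control and 24.96, 20.6 and 10.6 RPKM in microgravity. In both of these the groups overlapped. XLOC_005077 on chromosome 11 (47700531 to 47812307) had a mean of 14.6 RPKM over the 6 libraries, although XLOC_005078, a long locus 92668 bp away, had 1250 RPKM. XLOC_029479 on chromosome 8 (40313813 to 40381674) ranged from a listed 0 in control replicate 3 to 28.9 RPKM in microgravity replicate 2.

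Long loci were found on all 20 chromosomes of the table, in uneven shares. Chromosome 10 held the most, 28 of its 185 listed loci (15.1%), which was 8.86% of all long loci against 5.59% of all listed loci. By share, chromosome X followed with 15 of 108 (13.9%) and chromosome 12 with 20 of 164 (12.2%). The lowest shares were on chromosome 19, with 3 of 73 (4.11%), and chromosome 5, with 11 of 211 (5.21%), although chromosome 5 carried 2 of the 10 longest. These shares describe the table and were not tested. Loci with shared coordinates count among the listed loci of a chromosome but not among its long loci. The higher level of long loci was seen on 19 of the 20 chromosomes: their median was between 77.5 and 346 RPKM there, against 49.1 to 87.1 RPKM for the shorter loci of the same chromosomes. The exception was chromosome 7, with 70.9 RPKM for its 9 long loci and 73.3 RPKM for its shorter ones. Long loci held 26.5% of the RPKM of chromosome 14, 24.1% of chromosome 8 and 23.4% of chromosome X, but 1.55% of chromosome 7 and 1.87% of chromosome 17. Such a part of the RPKM depends on the other loci of the chromosome too. On chromosome 17 the median of the long loci was 98.3 RPKM, above the 87.1 RPKM of its shorter ones.

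**Figure D2:**
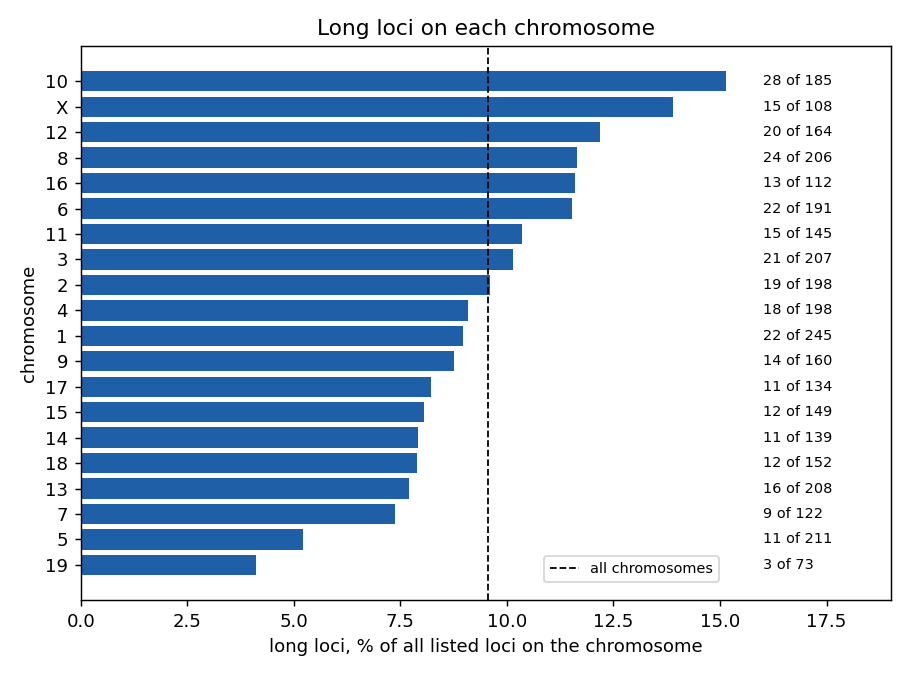
Share of the listed lncRNA loci of each chromosome that are long loci, in percent; bars are chromosomes in order of the share, the text at the right gives the counts, and the dashed line is the share over all chromosomes (9.56%). Chromosomes 10 and X are at the top with 15.1% and 13.9%, and chromosomes 5 and 19 at the bottom with 5.21% and 4.11%.

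No long locus overlapped another listed locus, and neither did any other 2 sets of coordinates in the table. The median gap from a long locus to the nearest listed locus was 188583 bp, close to the 184286 bp of shorter loci, and 34 long loci (10.8%) had a listed locus within 10000 bp, against 10.8% of shorter ones. Another long locus lay within 1000000 bp of 100 of them and within 100000 bp of 22, which formed 11 pairs. The closest pair was XLOC_032412 and XLOC_032771 on chromosome X, 8378 bp apart, at 165 and 59.6 RPKM. Members of a pair could differ widely in level: XLOC_005305 and XLOC_005306 on chromosome 11, 16711 bp apart, had 1140 and 75.4 RPKM, and XLOC_007944 and XLOC_008406 on chromosome 13, 40987 bp apart, had 1715 and 27.8 RPKM.

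The spread between libraries followed the level. The median SD of log2(RPKM + 1) within groups was 0.33 for the long loci and 0.39 for the shorter ones, and it fell from 0.34 at 50 to under 100 kb to 0.29 at 200 kb or more. Compared within tertiles of the mean level, long loci had the smaller spread in the middle tertile alone. In the highest tertile (129 RPKM or more) the median SD was 0.24 for long and 0.23 for shorter loci, and in the middle tertile it was 0.37 and 0.40. In the lowest tertile (under 43.5 RPKM) the long loci had the larger median, 0.80 against 0.68, at median levels of 28.7 and 27.6 RPKM. The highest library was under 2-fold the lowest for 182 long loci (57.6%) and 1163 shorter ones (43.2%), and it was at least 10-fold the lowest, or the lowest was listed at 0, for 18 long loci. The spread was larger among microgravity than among control libraries for 175 of the 316 (55.4%), as for 54.8% of all loci.

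**Figure D3:**
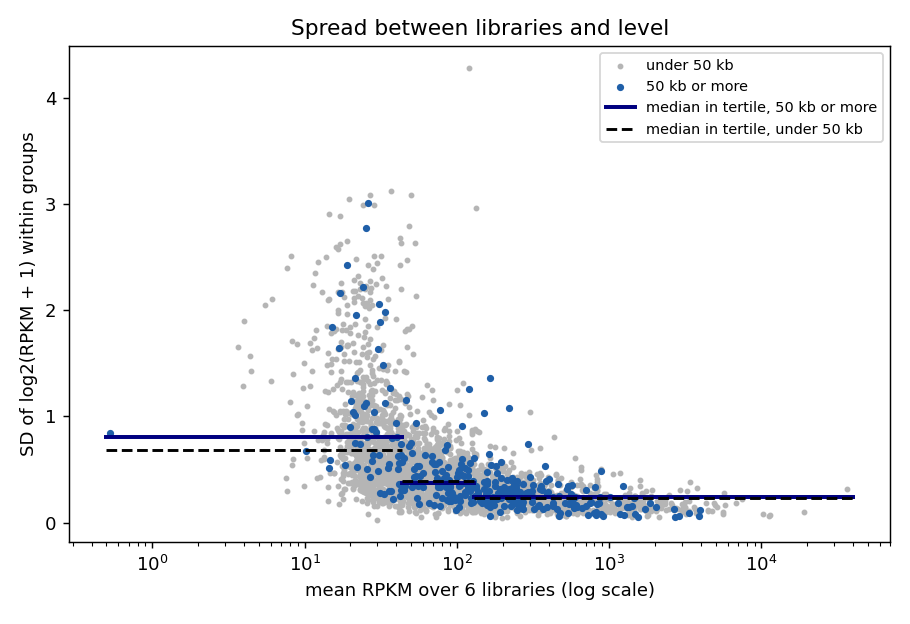
SD of log2(RPKM + 1) within groups (pooled over 3 control and 3 microgravity libraries) against mean RPKM (log scale); grey points are loci under 50 kb, blue points long loci, and lines the medians in each tertile of the level, solid for long loci and dashed for shorter ones. The lines lie close together in the middle and highest tertiles (0.37 and 0.40, 0.24 and 0.23) and apart in the lowest (0.80 and 0.68).

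Intermittent zeros were limited, among long loci, to the lowest tertile. A value of 0 in at least 1 library was listed for 12 long loci (3.80%), against 4.53% of shorter loci and 4.41% of all listed loci. All 12 were in the lowest tertile, where they made up 20.3% of 59 long loci, against 116 of 970 shorter loci there (11.96%). An example is XLOC_008031 on chromosome 13 (58816320 to 58888592), listed at 0 in control replicates 1 and 2 but at 97.5 RPKM in control replicate 3, and at 28.4, 7.69 and 18.8 RPKM in microgravity. XLOC_000054 on chromosome 1 (19480467 to 19551426) was listed at 0 in control replicate 1 and microgravity replicate 3, and had 48.0 and 69.0 RPKM in the other control and 7.82 and 32.5 RPKM in the other microgravity libraries. Without read counts, how much of this is counting error was not tested.

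Long loci at higher levels varied less, with some exceptions. Among those above the median level, the widest spread was at XLOC_008595 on chromosome 13 (80552256 to 80628440), with 73.9, 48.6 and 241 RPKM in control and 467, 60.8 and 106 RPKM in microgravity. XLOC_006894 on chromosome 12 (47014604 to 47071770) had 148, 58.1 and 445 RPKM in control and 285, 154 and 238 RPKM in microgravity. XLOC_009762 on chromosome 14 (30593060 to 30762770) had 237, 148 and 71.5 RPKM in control and 253, 50.5 and 146 RPKM in microgravity. In all 3 the groups overlapped, and no single library was the extreme in each. At the other end, XLOC_025842 on chromosome 6 (107130993 to 107227696) had 1532, 1481 and 1497 RPKM in control and 1581, 1686 and 1528 RPKM in microgravity, an SD of 0.05 on the log2 scale. XLOC_033059 and XLOC_030882, described above among the most abundant, were the other two of the 3 steadiest.

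The study asked whether lncRNA levels at this stage differ between normal gravity and simulated microgravity. No long locus passed the adjusted threshold of 0.05: of 315 long loci tested, 0 were called (limma on log2(RPKM + 1), lowest adjusted p = 0.497), and over all 3301 loci tested the share called was 0%. At an unadjusted p under 0.05 there were 27 long loci (8.57%), against 7.91% of all loci tested. Limma without trend and robust moderation gave 17 (5.40%), against 7.45% of all loci tested, and also called 0. Of the 27, 18 had higher values in microgravity (4.82% of all loci tested) and 9 lower values (3.09% of all). The 9 became 17 when microgravity replicate 1 was left out, 6 for microgravity replicate 2 and 5 for control replicate 1. Over all loci tested, the 102 lower ones of the reported fit became 158 of 3295, 77 of 3299 and 73 of 3295 in the same order. The 18 became 12 for control replicate 2, where the 159 higher ones of all loci became 126 of 3296. Such shifts were thus also seen in the whole table. The groups did not overlap at 33 long loci (10.5%), against 13.6% of all loci tested. These were 22 with higher values (7.39% of all loci tested) and 11 with lower values (6.24% of all), a split that was 17 and 16 after scaling each library to the same median. Both shares stood near or under the background.

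The long loci as a set were not displaced. Their median log2 difference (microgravity minus control) was 0.014, against -0.0037 over all loci tested, with 166 positive and 149 negative, and after median scaling it was -0.017, against -0.035 over all. The differences that the spread leaves room for were narrower than in the table as a whole. The 95% interval stayed inside 2-fold either way for 196 long loci (62.2%), against 48.0% of all loci tested, and for 25 of the 28 loci of 200 kb or more. Within tertiles of the level the shares were alike: 90.5% of long and 90.2% of shorter loci in the highest, 49.5% and 47.8% in the middle, and 6.90% and 4.97% in the lowest. For most long loci in the lowest tertile, the 95% interval thus reached beyond 2-fold with this spread.

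**Figure D4:**
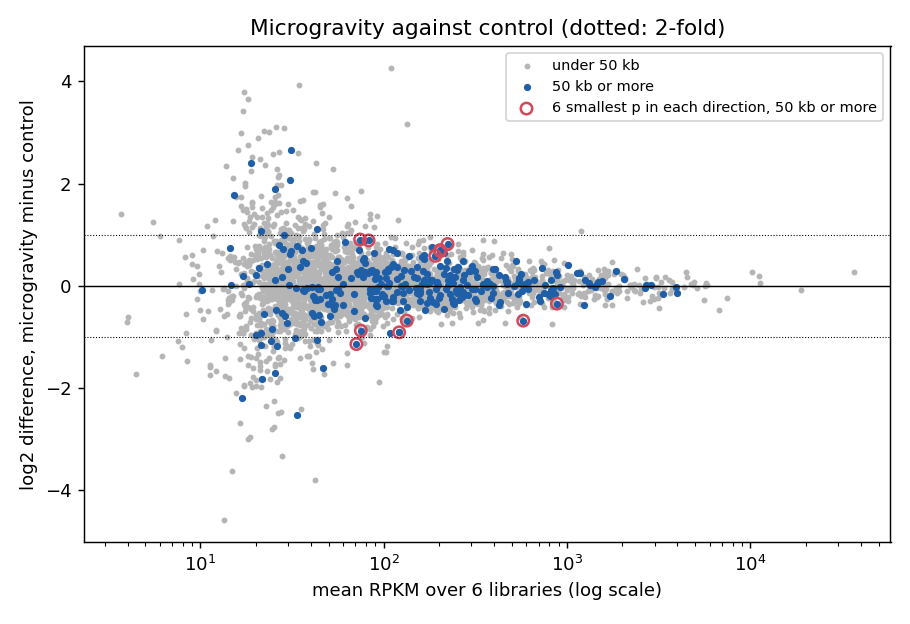
Log2 difference of microgravity minus control on log2(RPKM + 1) against mean RPKM (log scale) for each locus tested with coordinates of its own; grey points are loci under 50 kb, blue points long loci, red rings the 6 long loci of smallest p on each side of 0, and dotted lines 2-fold. The long loci centre on 0 (median 0.014) and fan out towards low levels as the shorter ones do, and 11 of the 12 ringed loci lie inside the 2-fold lines.

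Ordered by p, the long loci with higher values in microgravity were led by XLOC_011168 on chromosome 15, the third longest of the table. It had 168, 130 and 188 RPKM in control and 253, 294 and 304 RPKM in microgravity. The log2 difference was 0.82 ± 0.21 (SE; limma, unadjusted p = 0.00229, adjusted p = 0.497). XLOC_006953 on chromosome 12 (69441452 to 69546922) was at a similar level, with 165, 132 and 167 RPKM in control and 230, 263 and 258 RPKM in microgravity, with 0.70 ± 0.20 on the log2 scale (SE; limma adjusted p = 0.498). In both, the control library nearest to the microgravity values stayed well below them. XLOC_030702 on chromosome 9 (33749876 to 33815206) had 144, 158 and 155 RPKM in control and 238, 243 and 207 RPKM in microgravity. XLOC_028828 on chromosome 8 (32602339 to 32698566) had 116, 157 and 202 RPKM in control and 236, 273 and 237 RPKM in microgravity. These 4 loci all lay between 116 and 304 RPKM and on different chromosomes. The remaining 2 were lower and more scattered. XLOC_005512 on chromosome 11 (112917297 to 113063154) had 39.4, 53.4 and 85.0 RPKM in control and 118, 112 and 88.0 RPKM in microgravity, so its groups came close to touching. XLOC_010989 on chromosome 15 (6013834 to 6068460) had 34.0, 74.1 and 50.2 RPKM in control and 93.4, 81.6 and 112 RPKM in microgravity. Adjusted p (limma) ran from 0.497 to 0.609 over these 6 loci.

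Among long loci with lower values in microgravity, XLOC_013100 on chromosome 17 (9475903 to 9562700) came first. Its control libraries were almost alike at 710, 720 and 688 RPKM, while the microgravity libraries had 562, 385 and 393 RPKM, which is -0.68 ± 0.17 on the log2 scale (SE; limma, unadjusted p = 0.00237, adjusted p = 0.497). XLOC_009805 on chromosome 14 (45180372 to 45250343) showed a like arrangement at a higher level, with 975, 1004 and 975 RPKM in control and 797, 707 and 820 RPKM in microgravity. Its difference was small, -0.35 ± 0.13 on the log2 scale (SE; limma, adjusted p = 0.609). XLOC_027693 on chromosome 7 (79892778 to 79971671) had 149, 155 and 168 RPKM in control and 60.6, 87.3 and 108 RPKM in microgravity, again with the wider scatter in microgravity. XLOC_012053 on chromosome 16 (20874851 to 20935315) had 121, 66.7 and 107 RPKM in control and 52.9, 45.2 and 56.9 RPKM in microgravity, and a listed locus lay only 469 bp from it. XLOC_018040 on chromosome 2 (160246830 to 160318002) had 223, 131 and 143 RPKM in control and 115, 109 and 80.2 RPKM in microgravity. XLOC_027046 on chromosome 7 (92434313 to 92498478) had 120, 60.2 and 113 RPKM in control and 30.8, 36.6 and 64.9 RPKM in microgravity, the only one of these 12 loci whose groups overlapped. Adjusted p (limma) ran from 0.497 to 0.616 over these 6 loci. Since the 12 were picked by p in this comparison, the separation of their groups supports nothing further.

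**Figure D5:**
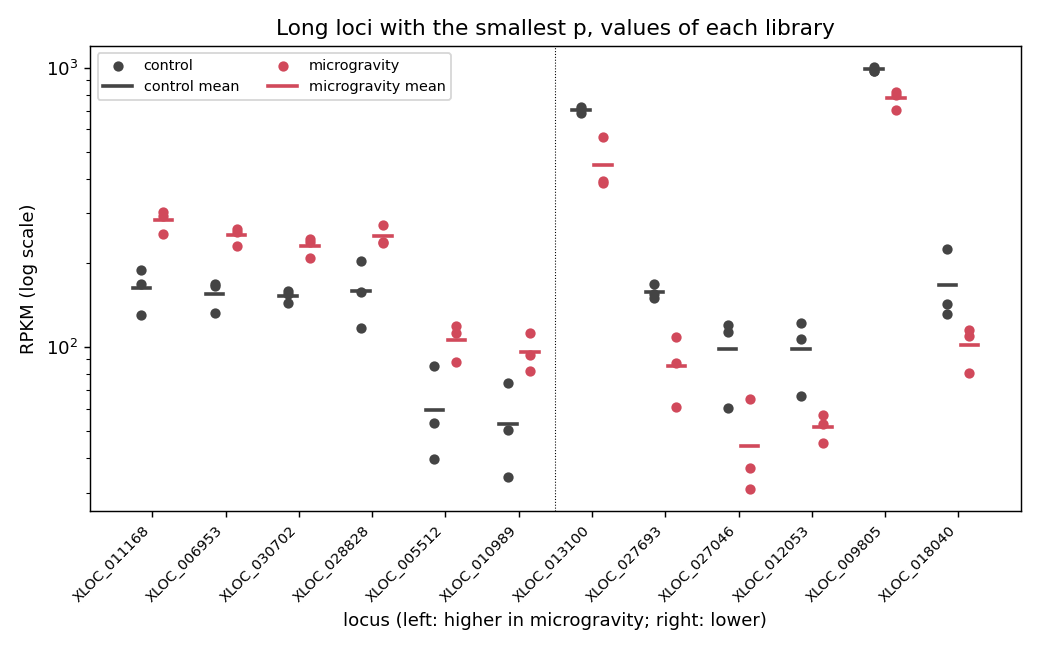
RPKM of each library (log scale) for the 6 long loci with the smallest p and higher values in microgravity (left) and the 6 with lower values (right); points are libraries, grey for control and red for microgravity, and short bars the group means. In 11 of the 12 loci the points of the 2 groups do not overlap; in XLOC_027046 the lowest control point (60.2 RPKM) is under the highest microgravity point (64.9 RPKM).

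With a 2-fold minimum added to an unadjusted p under 0.05, 6 long loci were left (1.90%), against 2.73% of all loci tested, 2 with higher values (1.67% of all) and 4 with lower (1.06% of all). Without trend and robust moderation 1 was left (0.32%, against 2.76% of all loci tested), with lower values. The split turned with single libraries: it was 4 higher and 1 lower without control replicate 3, 3 and 1 without control replicate 1, and 4 and 2 without either of microgravity replicates 1 and 2. Over all loci tested, 55 were higher and 35 lower in the reported fit. They were 84 and 31 of 3294 without control replicate 3, and 64 and 33 of 3295 without control replicate 1. Without microgravity replicate 1 they were 60 and 57 of 3295, and without microgravity replicate 2, 51 and 37 of 3299. XLOC_027046 is described above, and the other five are named after their values were seen. All 5 had means under 50 RPKM. XLOC_018920 on chromosome 3 (4494195 to 4604470) was listed at 0 in control replicate 2, and had 11.8 and 24.1 RPKM in the other control libraries and 20.3, 90.5 and 40.5 RPKM in microgravity, where 1 library alone was far above the rest. XLOC_015150 on chromosome 18 (78812883 to 78882769) had 48.5, 23.2 and 13.5 RPKM in control and 71.0, 35.0 and 67.2 RPKM in microgravity. XLOC_008248 on chromosome 13 (6408461 to 6532258) had 61.7, 57.7 and 30.9 RPKM in control, and in microgravity 37.5 and 15.1 RPKM and a listed 0. In these 3 the groups overlapped. XLOC_019629 on chromosome 3 (53562078 to 53617266) had 58.8, 56.9 and 54.0 RPKM in control and 30.5, 13.0 and 46.4 RPKM in microgravity, without overlap. XLOC_027387 on chromosome 7 (15279277 to 15387029) had 88.8, 24.0 and 93.5 RPKM in control and 11.2, 10.9 and 50.7 RPKM in microgravity, so control replicate 2 was below the highest microgravity library.

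By chromosome, the median log2 difference of the long loci lay between -0.60 (chromosome 7, 9 loci) and 0.23 (chromosome 15, 12 loci), and was 0.03 on chromosome X (15 loci, 0 at an unadjusted p under 0.05). Of the 9 long loci with lower values at an unadjusted p under 0.05 (3.09% of all loci tested had such values), 3 were on chromosome 7, namely XLOC_027046, XLOC_027387 and XLOC_027693. Over all 122 tested loci of chromosome 7 there were 6 (4.92%). Over all tested loci of that chromosome the median was -0.10. The median of its long loci depended partly on which library was in: leaving out control replicate 2 gave -0.92, and leaving out control replicate 3 gave -0.37. Control replicate 2 had low values at several of them, as at XLOC_027957 (136932813 to 137039339) with 39.6, 10.6 and 72.4 RPKM in control and 10.4, 4.34 and 15.6 RPKM in microgravity. On chromosome 15, 3 of the 12 long loci had higher values at an unadjusted p under 0.05 and 0 had lower ones, and chromosome 9 had the same counts among its 14 long loci. The share with higher values was 4.73% of all tested loci on chromosome 15, 6.88% on chromosome 9 and 4.82% over the table. The median log2 difference over all tested loci of chromosome 15 was 0.03. These medians rest on few loci, and no test was made of them.

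The limit of 50 kb cuts through a continuous range of spans. Just inside it, XLOC_025496 (50089 bp, chromosome 6), XLOC_016717 (50295 bp, chromosome 2) and XLOC_017732 (50319 bp, chromosome 2) had mean levels of 158, 36.9 and 84.5 RPKM. Just outside it, XLOC_025549 (49962 bp, chromosome 6), XLOC_017656 (49910 bp, chromosome 2) and XLOC_013558 (49787 bp, chromosome 17) had 34.8, 168 and 357 RPKM.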

How the data were processed

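RNA of mouse zygotes was sequenced in 6 libraries, 3 control and 3 microgravity, grouped by the sample titles. The authors deposited 1 RPKM value per locus and library, per the file headers. Coordinates are of mm9, per the submitters' processing notes. Aligner, assembler, counting, strand use and the reads behind the scaling are not stated in the sources used here. The annotation and promoter sequences at hand were of GRCm38 and were not used, so no sequence is shown.

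The comparison of the groups used log2(RPKM + 1) values and limma 3.58.1 (R 4.3.3), trend and robust moderation included, over the 3301 loci that reached 1 RPKM in 3 or more libraries. Tests were two-sided with Benjamini-Hochberg adjustment over all these loci and a threshold of 0.05. Adding 1 RPKM shrinks fold changes between low values, while values listed at 0 can move the log2 difference away from that of the means. XLOC_008031, for example, had a log2 difference of 1.89, with means of 32.5 RPKM in control and 18.3 RPKM in microgravity. The code was tested on simulated data. Figures used matplotlib 3.10.9 in Python 3.11.15.

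The members and lists were chosen with earlier results of these data known. Named were the 10 longest, the 5 with the highest and the 5 with the lowest mean, 6 in each direction by smallest p, the 3 with the widest and the 3 with the narrowest spread above the median level, and 3 on each side of the span limit. Alternatives covered the pseudocount, filter, scaling, moderation, library weights, replicate block, single libraries, span limit and shared coordinates. Depth is unknown, so no counting interval is given.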

Additional observations from a re-analysis of the deposited data

How the results depend on the processing

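The count of 0 called long loci held in every fit run, and the median log2 difference, 0.014, was 0.0067 to 0.046 without single libraries and -0.017 after median scaling. Without trend and robust moderation, long loci at unadjusted p under 0.05 were 17 (5.40%, against 7.45% of all loci), from 27 in the report. Those also at least 2-fold were 1 (0.32%, against 2.76%), from 6. Without single libraries the first count ranged from 18 to 35 (5.71% to 11.1%, against 5.76% to 9.38% of all loci). The second ranged from 4 to 7 (1.27% to 2.22%, against 2.67% to 3.55%). Of the 27 in the report, 12 to 19 were found again. All 27 kept their direction in every fit, but at 13 of the 18 higher and 6 of the 9 lower ones the groups do not overlap, which fixes the sign when single libraries are dropped. With a limit of 25 kb (25000 bp), 729 loci were tested, against 315, with 56 at unadjusted p under 0.05 (7.68%, against 7.91% of all loci), 14 also 2-fold (1.92%, against 2.73%), 87 without overlap (11.9%, against 13.6%), 423 bounded within 2-fold (58.0%, against 48.0%), 23 at 0 in a library, and a difference in RPKM share of -0.366 percentage points (-0.018 at 50 kb). With 100 kb (111 tested) these counts were 10 (9.01%), 3 (2.70%), 15 (13.5%), 78 (70.3%) and 4. Loci without overlap were 57 of 417 (13.7%) with shared coordinates kept, near the 13.6% of all loci. Without single libraries, 55 to 84 long loci had no overlap (17.5% to 26.7%, against 22.7% to 26.8% of all loci). There, 2 against 3 libraries separate more easily. Those bounded within 2-fold were 167 to 181 without single libraries.

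For 16 named loci the sign changed in at least 1 fit. Most of these differences were small, but XLOC_008595 (0.59) and XLOC_006894 (0.48), with the widest spread among long loci above the median level, also turned. With median scaling the log2 difference was -0.020 for XLOC_005077, -0.021 for XLOC_025462 and -0.019 for XLOC_033059. With quantile normalization it was -0.026 for XLOC_005077, 0.0039 for XLOC_029159 and 5.2e-05 for XLOC_030882, and with library weights 0.012 for XLOC_023834 and 0.016 for XLOC_029159. Without single libraries it ran from -0.11 to 0.19 for XLOC_003334, -0.34 to 0.36 for XLOC_005077, -0.23 to 1.23 for XLOC_006894, -0.25 to 1.26 for XLOC_008595, -0.66 to 0.50 for XLOC_009762, -0.45 to 0.32 for XLOC_013071, -0.42 to 0.0041 for XLOC_016662, -0.30 to 0.10 for XLOC_016717, -0.20 to 0.18 for XLOC_017732, -0.53 to 2.2e-05 for XLOC_022972, -0.21 to 0.21 for XLOC_023834, -0.031 to 0.057 for XLOC_025462, -0.36 to 0.24 for XLOC_025496, -0.14 to 0.19 for XLOC_029159, -0.044 to 0.021 for XLOC_030882 and -0.012 to 0.043 for XLOC_033059. The cause was not tested.

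With the replicate number as a block, the call count was 0 and the count at unadjusted p under 0.05 was 27, 24 of them among the reported 27. Same-numbered libraries did not deviate together over all loci (r of 0.0094, -0.00011 and -0.025) and were treated as unpaired. Over the long loci r was -0.076, 0.14 and 0.018 for same-numbered libraries, and -0.16 to 0.12 for the other pairs between groups. The settings for chromosome 7 and 5 of the 6 loci past 2-fold were chosen after seeing the data. Reads per library are unknown, so counting error cannot be separated from the spread.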

Other observations

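The 103 loci of 50 kb or more left out of the report lay at 49 sets of coordinates. They made up 34.7% of the 297 loci with shared coordinates, whereas loci of that span made up 12.7% of all listed loci. Their median level was 90.1 RPKM, between those of the long loci with coordinates of their own (130 RPKM) and the shorter loci (64.9 RPKM). Their part of the RPKM total was 3.56% ± 0.077 in control against 3.71% ± 0.092 in microgravity (SD, n = 3 each). Their median SD within groups was 0.31 on the log2 scale.

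Of the 11 pairs of long loci within 100000 bp of each other, 9 had log2 differences of the same sign in both members and 2 of unlike sign. In the unlike pairs 1 member was near 0. In the pair on chromosome 8 that lies 9803 bp apart, XLOC_028828 had a log2 difference of 0.68 and XLOC_029452 of -0.026 ± 0.13 (SE), at mean levels of 204 and 915 RPKM. The other was XLOC_010720 (0.05 ± 0.15, SE) with XLOC_010721 (-0.31) on chromosome 15. In the pair on chromosome 9, 71573 bp apart, XLOC_030702 and XLOC_031313 had log2 differences of 0.59 and 0.49. In the pair on chromosome 16, 22647 bp apart, XLOC_012223 and XLOC_012545 had -0.32 and -0.60. Differences near 0 also occurred in pairs of like sign, as at XLOC_005077 (0.0093 ± 0.81, SE), XLOC_025849 (0.014) and XLOC_032771 (0.033). The sign of XLOC_005077 changed in 4 fits. The same count was not made for other neighbouring loci, and whether neighbours change together was not tested. No locus of the 11 pairs passed the adjusted threshold in limma.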
